A study of Caenorhabditis elegans with 30 samples.

Results

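RNA from young adult C. elegans of the mutants osm-8(n1518) and osm-7(n1515) was compared on Affymetrix GeneChips, with 3 arrays for each strain. These 6 arrays belong to a series of 30, and no wild type array enters the difference between the mutants. Both strains were raised at 20 degrees C on standard plates with 51 mM NaCl and were never moved to high salt, so the groups differ by genotype. Each strain carries 1 allele. N2, osm-11(n1604), dpy-9(e12) and dpy-10(e128) worms raised in the same way, with 3 arrays each, are used to place the levels and to estimate the spread. N2 worms kept on 200 mM NaCl for 15 min, 1 h, 6 h or 1 generation, also with 3 arrays each, help to place the levels. They also enter the filter on low values. Each array was hybridised with RNA from whole worms, which a COPAS sorter had collected in lots of 500 to 1000 animals with a gate set to leave out L4 and younger larvae. All 22548 probe sets that are not Affymetrix controls entered. The methods describe individual replicate preparations for each time point, of which those with the best RNA were hybridised. Neither they nor the labels say whether the arrays of a mutant came from separate cultures, so p-values measure the spread between these arrays, which may be technical.

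Both mutants belong to the osr class, worms that survive salt concentrations lethal to the wild type without prior exposure. The gene osm-7 encodes a secreted protein with a motif found in co-ligands of the Notch receptors, and osm-8 encodes a secreted protein of the mucin type. Worms in high salt accumulate glycerol, which is made through glycerol 3-phosphate dehydrogenase, and the cuticle, a layered matrix of collagens laid down by the epidermis at each molt, separates the animal from its medium. In the hermaphrodite, sperm are made in the last larval stage before the germ line switches to oocytes, so that young adults of different ages hold different mixtures of the transcripts of both.

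The deposited values were intensities on a linear scale, and their log2 is given throughout. An intensity near 2 or 3 on this scale is the background of the array. Across probe sets, arrays correlated with r between 0.992 and 0.996 within osm-7, between 0.992 and 0.997 within osm-8 and between 0.965 and 0.972 across the strains. By these correlations, arrays resembled the others of their strain more than those of the other strain, and no pair held identical values. With 3 arrays per strain, a stray array cannot be screened for. The probe sets that reached a log2 intensity of 4 on at least 3 of the 30 arrays were tested, which left 12031 probe sets and 10517 untested. Of those tested, 11378 stood for 1 gene each and covered 9000 genes.

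Most of the transcripts that differed between the strains were higher in osm-8, and many of these were near the background of the array in osm-7. A probe set was called where the adjusted p from limma, fitted over the 18 isotonic arrays, was 0.01 or lower and the strains differed 3-fold or more. Of the 12031 probe sets, 777 (6.46%) were called, of which 661 (5.49%) were higher in osm-8 and 116 (0.964%) were lower. The calls covered 516 genes that were higher and 88 that were lower, which is 5.73% and 0.978% of the 9000 genes. The larger differences were still more one-sided. A difference of at least 16-fold was reached by 159 probe sets higher in osm-8 and by 3 lower, and one of at least 64-fold by 12 and 0. In all 777 the arrays of the strains did not overlap, which also held for 20.7% of the tested probe sets with higher and 28.9% with lower osm-8 values. Without the fold limit, limma gave 1399 probe sets higher and 699 lower at the same adjusted p. The median difference over all tested probe sets was -0.12 on the log2 scale, and differences are given as measured, with this shift left in. The osm-7 mean of 370 of the 661 probe sets lay under a log2 intensity of 4, and the osm-8 mean of 31 of the 116. The size of these differences is uncertain, and with 32 added to each intensity 357 probe sets were called.

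**Figure D1:**
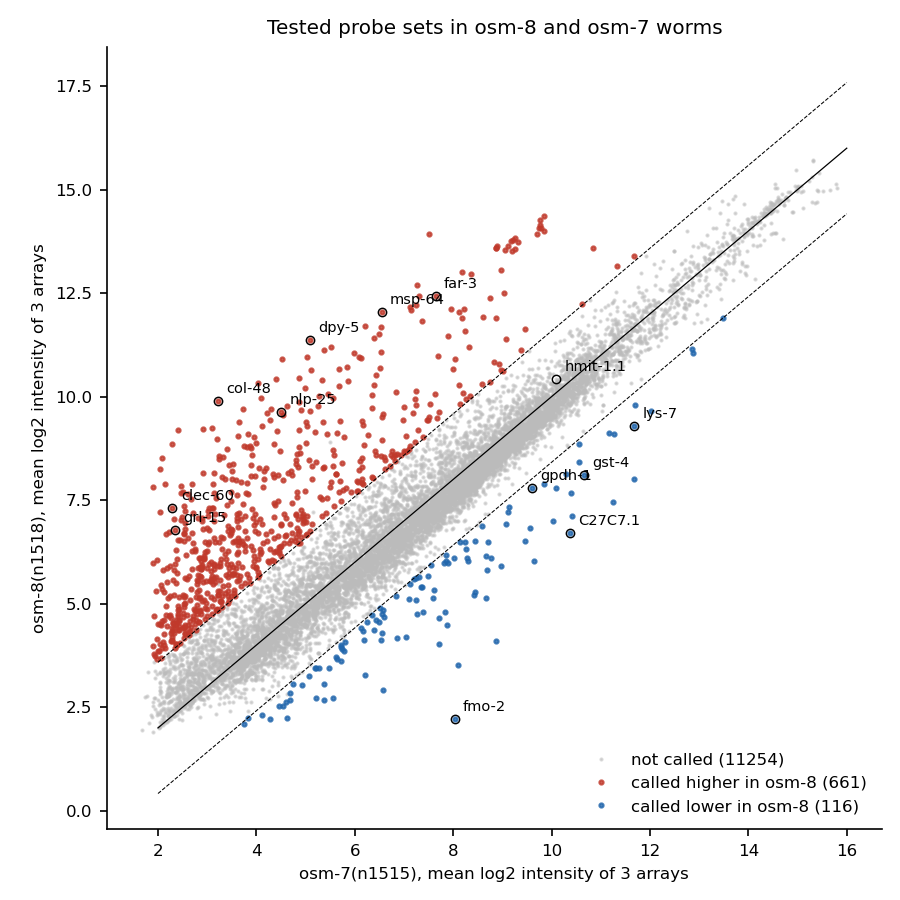
Mean log2 intensity of the 3 osm-8 arrays (vertical axis) against that of the 3 osm-7 arrays (horizontal axis) for the 12031 tested probe sets, with the solid line at equality and dashed lines at a 3-fold difference. The 661 probe sets called higher in osm-8 spread far above the upper line, many from the background of the osm-7 arrays, whereas the 116 called lower reach less far below the lower line, with fmo-2 the lowest.

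Sperm transcripts made up the most uniform group. The major sperm proteins (MSP) are small cytoskeletal proteins that drive the crawling of nematode sperm, and the ssp genes encode related sperm proteins. Of the 31 genes of both families, 28 were called higher in osm-8 and 0 lower, with a median difference of 4.52. All 23 msp genes tested were among them. For msp-64, the osm-7 arrays gave log2 intensities of 6.69, 6.93 and 6.01, and the osm-8 arrays 12.50, 11.71 and 11.89. The strains were thus separated by a gap far wider than the spread within either (difference 5.49, standard error 0.388, adjusted p = 1.01e-08 in limma, n = 3). The next members by size were msp-152 (5.43), msp-63 (5.16) and msp-142 (5.15). Probe sets ending in _x_at or _s_at can bind several related transcripts, and 27 of the 31 members were read by such sets, so the msp genes cannot be told from each other here. The other 4 members were ssp-16, ssp-34 (4.38), ssp-35 (4.22) and ssp-19 (1.60, adjusted p = 0.0105), of which the first 3 were called. They are named for this reason, after their values were seen. The values of ssp-16 were 3.73, 3.64 and 3.46 in osm-7 and 7.46, 7.49 and 7.89 in osm-8.

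A second list, of genes that act in the making of sperm, held 17 tested genes, of which 8 were called higher and 0 lower, with a median of 1.27. The gene gsp-3, which encodes a sperm protein phosphatase of type 1, measured 2.88, 3.36 and 3.36 in osm-7 and 9.27, 8.79 and 8.89 in osm-8. Its difference of 5.78 (standard error 0.291, limma adjusted p = 1.53e-10) was among the 15 largest of all genes, as were those of msd-2 (5.70) and msd-4 (5.58), which encode proteins with an MSP domain. The msd genes are on neither sperm list. In nspd-1 the difference was 5.07, in nspd-2 4.61 and in spe-18 4.41. Added after their values were seen were spe-11, which encodes a sperm factor needed by the embryo (difference 2.49), and spe-4 (2.26), which encodes a presenilin family member of the organelles of developing sperm. For spe-4 the osm-7 arrays stood at the background, with 2.19 on each, against 4.40, 4.03 and 4.93 in osm-8. With 32 added to each intensity, the calls of spe-11 (1.00) and spe-4 (0.57) were lost. In whole worms, fewer cells of a type and less RNA per cell cannot be told apart.

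The summed intensity of the 31 MSP and ssp genes ranged from 12.74 to 13.35 (log2) on the osm-7 arrays and from 17.54 to 17.71 on the osm-8 arrays. The other groups of the series placed these levels. The sum lay between 13.45 and 14.55 in N2 on isotonic plates, between 13.50 and 14.77 in osm-11(n1604), between 18.28 and 18.43 in dpy-9(e12) and between 17.97 and 18.06 in dpy-10(e128). In N2 worms on 200 mM NaCl it moved widely with the exposure, from 16.55 to 16.58 after 15 min to 11.48 to 12.03 after 6 h. This sum thus differed between N2 groups of 1 genotype by about as much as between osm-8 and osm-7. The sum of the second list did not move as widely in N2. It was 11.01 to 11.17 after 15 min and 10.42 to 10.48 after 6 h, against 10.18 to 10.42 in osm-7 and 12.10 to 12.13 in osm-8. The part of sperm transcripts in the other differences described here was not tested.

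Oocyte and yolk transcripts differed in the opposite direction and by far less. In the list of 24 genes of the oocyte and early embryo, 0 were called in either direction and 22 had lower values in osm-8. Of these, 11 were lower at an adjusted p of 0.01 or less in limma without reaching 3-fold. Whatever the fold, this adjusted p was passed by 548 of all 9000 genes with lower values in osm-8. The median difference was -0.56. For egg-2, which encodes a receptor-like protein of the egg surface, the values were 12.14, 12.27 and 12.27 in osm-7 and 11.33, 11.43 and 11.35 in osm-8 (difference -0.86, standard error 0.13, adjusted p = 9.14e-05). The eggshell gene perm-4 differed by -0.82 and perm-2 by -0.78. The 5 vitellogenin genes, which encode the yolk proteins made in the adult intestine, all had lower values in osm-8, with a median of -0.65, and 3 of them passed the adjusted p without reaching 3-fold. For vit-1 the difference was -0.95 (adjusted p = 0.00577). The summed oocyte level was 17.02 to 17.05 in osm-7 and 16.36 to 16.50 in osm-8, and that of the vitellogenins 17.55 to 17.74 and 16.96 to 17.08, so neither pair of ranges overlapped.

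**Figure D2:**
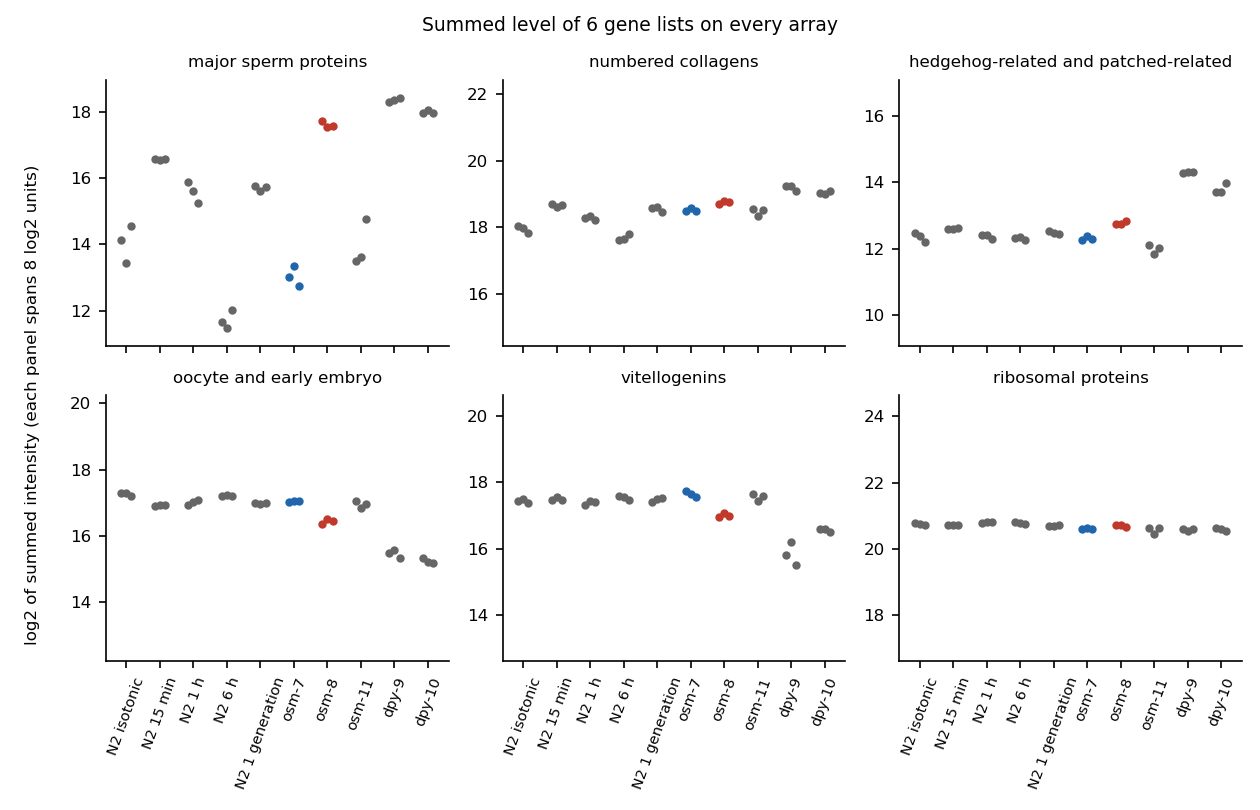
Log2 of the summed intensity of 6 gene lists (vertical axis, each panel spanning 8 log2 units) on every array of the 10 groups, 1 point per array, with osm-7 in blue and osm-8 in red. The MSP and ssp sum is 12.74 to 13.35 in osm-7 and 17.54 to 17.71 in osm-8, whereas the sum of 72 ribosomal protein genes stays between 20.44 and 20.81 in all groups.

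Collagens of the cuticle were the largest family among the calls. Of 89 numbered col genes tested, 29 were called higher in osm-8 and 0 lower. At the same adjusted p whatever the fold, 47 were higher, against 1123 of all 9000 genes. The 4 largest differences were those of col-48 (6.67), col-49 (5.99), col-38 (5.94) and col-60 (5.43). In col-48 the osm-7 arrays gave 3.34, 3.32 and 2.99, close to the background, and the osm-8 arrays 9.93, 9.74 and 9.99 (standard error 0.261, limma adjusted p = 8.33e-12). For col-60 the values were 3.51, 3.50 and 3.86 in osm-7 and 9.06, 9.07 and 9.02 in osm-8. The family did not move as a block. Its median difference was 0.80 and the lowest was -1.46. At an adjusted p of 0.01 or less, 5 members were lower in osm-8, against 548 of all 9000 genes. The lowest was col-101, which is named because of this rank and had 10.73, 10.58 and 10.59 in osm-7 against 9.42, 9.14 and 8.98 in osm-8. The summed level of the 89 genes, which the most abundant members dominate, was 18.48 to 18.59 in osm-7 and 18.71 to 18.78 in osm-8. Of the 89 members, 43 were read by probe sets that may bind related collagens. Of the probe sets left when those ending in _x_at or _s_at are taken out, 15 were called.

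Collagens known from mutants with altered body shape followed the same pattern more strongly, with 8 of 13 called higher, 0 lower and a median of 2.40. The gene dpy-5, mutated in dumpy worms, measured 5.56, 5.22 and 4.50 in osm-7 and 11.34, 11.18 and 11.59 in osm-8. This was the fifth largest rise of all genes (difference 6.28, standard error 0.265, limma adjusted p = 1.75e-11). It was followed by sqt-1 (4.97), rol-8 (4.76), bli-2 (4.51) and, lower down, rol-6 (2.40). The gene bli-2, which encodes a collagen of the struts between the layers of the adult cuticle, stood at 2.23, 2.22 and 2.23 in osm-7 and spread more widely in osm-8, at 7.60, 6.66 and 5.95. The collagens of the annular furrows are those whose loss is known to activate osmotic and other stress genes in worms, and 2 of the 5 tested were called higher, dpy-8 (2.95) and dpy-3 (1.72). Both calls were lost with 32 added to each intensity (1.52 and 0.69). For dpy-7 and dpy-9 the differences were 1.19 (adjusted p = 0.00113) and 0.89 (adjusted p = 0.0356), below the 3-fold limit. The values of dpy-8 were 3.68, 3.46 and 3.73 in osm-7 and 6.80, 6.65 and 6.28 in osm-8.

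Some genes linked to the molt were higher in osm-8 as well. The nematode has no Hedgehog pathway of the usual form but a large family of Hedgehog-related secreted proteins (wrt, grd, grl and hog) and Patched-related membrane proteins, many of them expressed in the epidermis around molts. Of 39 such genes tested, 15 were called higher and 0 lower, with a median of 1.09. The warthog gene wrt-4 measured 2.59, 2.49 and 2.49 in osm-7 and 6.56, 6.74 and 6.78 in osm-8 (difference 4.17, standard error 0.187, limma adjusted p = 3.61e-11). The ground-like genes grl-15 (4.43) and grl-21 (4.40) and the groundhog gene grd-14 (4.27) differed as much. Within osm-7, grd-14 varied more than these, with 5.88, 4.42 and 4.78, but still did not overlap 9.29, 9.18 and 9.42 in osm-8. Their receptor relative ptc-3, chosen after its value was seen, differed by 2.52. Its call was lost with 32 added to each intensity (1.32).

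In the list of 25 genes of molting and the apical matrix, 5 were called higher and 0 lower, with a median of 0.46. The cuticle gene cut-2 gave 7.40, 7.38 and 7.34 in osm-7 and 12.08, 11.63 and 11.79 in osm-8, a difference of 4.47. Next came mlt-8 (3.68), acn-1 (2.48), which encodes a relative of angiotensin-converting enzyme that worms need for molting, and mlt-9 (2.43). The molting gene mlt-10, the last of the 5, was added after its value was seen and differed by 2.08. With 32 added to each intensity, the calls of acn-1 (0.99), mlt-9 (0.80) and mlt-10 (1.38) were lost. The metalloprotease gene nas-7 (1.62) was the 1 called of 11 astacin genes (9.09%, against 5.73% of all genes called higher). Its difference fell to 1.48 without osm-8 replicate 3 and to 1.58 without osm-7 replicate 3, below the 3-fold limit. The epidermis marker list showed no such rise as a whole, with 0 of 12 called in either direction and a median of -0.05. At the adjusted p alone 2 were higher, against 1123 of all 9000 genes. These were mup-4 (1.19) and dpy-7 (1.19), of which dpy-7 is also on the furrow collagen list. The sperm lists, the collagen lists and the lists of the molt accounted for 36, 39 and 20 (Hedgehog-related and molting together) of the 516 genes called higher. Outside them, 421 of 8781 genes (4.79%) were called higher and 88 (1.0%) lower. The lists do not hold every gene of these kinds, and msd-2 and msd-4 are counted among the 421.

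**Figure D3:**
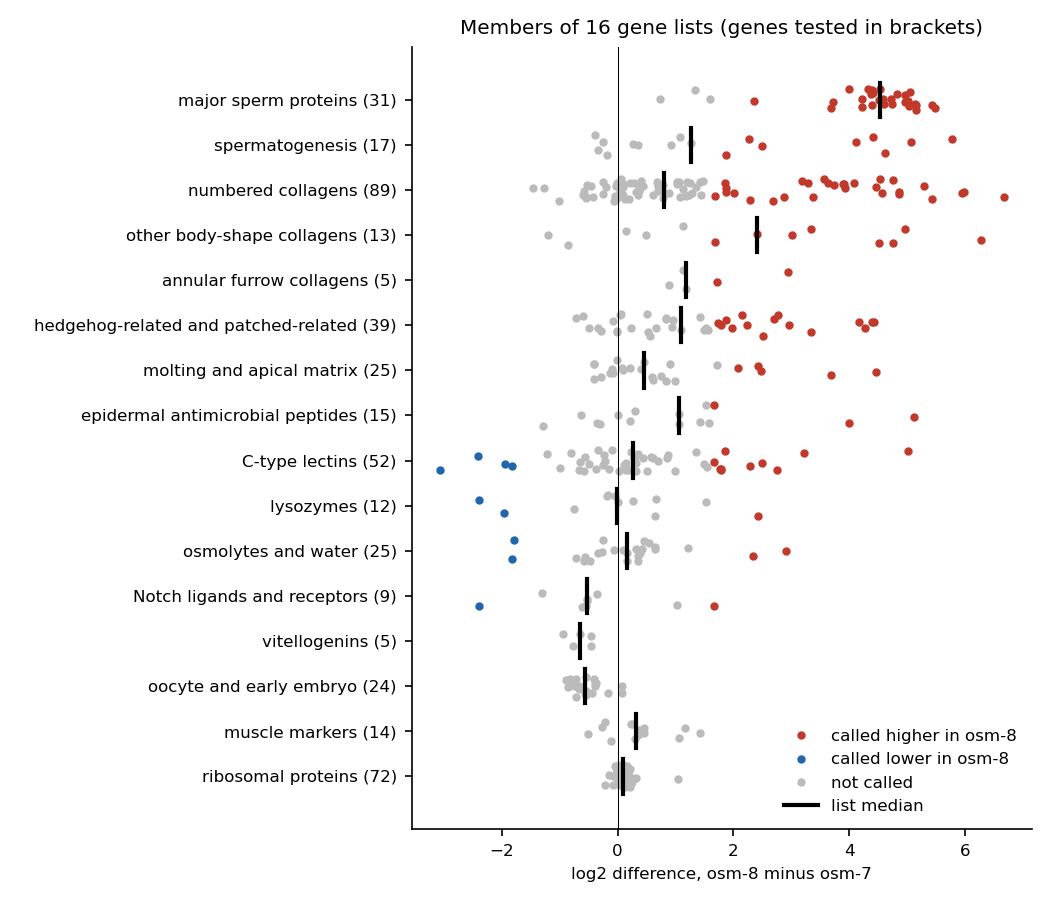
Log2 difference, osm-8 minus osm-7 (horizontal axis), of each tested member of 16 gene lists, 1 point per gene, with called genes in red or blue and the list median as a black bar. The 23 msp genes of the first list lie between 3.71 and 5.49, the collagens trail from -1.46 to 6.67, and the 72 ribosomal protein genes gather around a median of 0.09.

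Genes of osmolyte metabolism and water transport differed in both directions. Of 25 tested, 2 were called higher in osm-8 and 2 lower, together 16% against 6.71% of all genes, and the median difference was 0.16. The gene gpdh-1, which encodes the salt-induced glycerol 3-phosphate dehydrogenase, was lower in osm-8. Its values were 9.60, 10.04 and 9.19 in osm-7 and 7.53, 7.95 and 7.88 in osm-8 (difference -1.82, standard error 0.267, limma adjusted p = 6.39e-05). Both strains lay far above N2 on isotonic plates, where its mean was 3.22. The other isoform, gpdh-2, was lower by less than 3-fold (-0.71, adjusted p = 0.00022). The trehalase gene tre-5 was called lower (-1.79), from 4.44, 3.69 and 4.18 in osm-7 to a background of 2.50, 2.29 and 2.17 in osm-8. The aquaporin genes aqp-1 and aqp-4 were called higher. For aqp-1 the osm-7 arrays gave 4.80, 5.72 and 5.55 and the osm-8 arrays 8.23, 8.27 and 8.31, a difference of 2.91 (adjusted p = 0.000226). For aqp-4 the values were 4.14, 4.13 and 4.14 against 6.14, 6.39 and 6.89, a difference of 2.33. With 32 added to each intensity, the calls of aqp-4 (1.29) and tre-5 (-0.42) were lost.

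Further genes of this list, whose N2 means were higher after 6 h on 200 mM NaCl than on isotonic plates, did not pass the test and are named after their values were seen. For the inositol transporter gene hmit-1.1, with 9.76, 10.48 and 10.07 in osm-7 and 10.34, 10.41 and 10.51 in osm-8, the difference was 0.32 (95% interval -0.11 to 0.75, limma adjusted p = 0.252). For the glucosidase gene aagr-1 it was 0.16 (-0.19 to 0.51), for the betaine transporter gene snf-3 -0.25 (-0.88 to 0.38) and for aqp-8 -0.47 (-0.95 to 0.01). The intervals of all 4 leave out a 3-fold difference in either direction. Their means in N2 were 2.56 for hmit-1.1, 4.79 for aagr-1, 3.68 for snf-3 and 5.39 for aqp-8, below both mutants.

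Defence genes differed in both directions. Among 15 genes of epidermal antimicrobial peptides (cnc and nlp), 3 (20%) were called higher in osm-8 and 0 lower, with a median of 1.06. The peptide gene nlp-25 measured 5.05, 4.34 and 4.10 in osm-7 and 9.60, 9.84 and 9.43 in osm-8 (difference 5.12, standard error 0.328, limma adjusted p = 3.1e-09), and the caenacin gene cnc-6 differed by 3.99. For nlp-30 the difference was 1.66, which fell to 1.58 and below the 3-fold limit without osm-7 replicate 3. Among 52 C-type lectin genes, a family of secreted carbohydrate-binding proteins, 10 (19.2%) were called higher and 4 (7.69%) lower, against 5.73% and 0.978% of all genes. The gene clec-60, an intestinal lectin gene known from infection with Gram-positive bacteria, was at the background in osm-7 (2.31, 2.27 and 2.30) and at 7.27, 7.31 and 7.35 in osm-8, a difference of 5.01. The differences of clec-82 and clec-52 were 3.23 and 2.75. At the other end was clec-266, with 8.56, 8.92 and 9.44 in osm-7 and 5.60, 5.49 and 6.62 in osm-8 (difference -3.07, adjusted p = 6.43e-05).

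Lysozymes, enzymes that cleave bacterial cell walls, were split in the same way. Of 12 tested, 1 (8.33%) was called higher and 2 (16.7%) lower, against 5.73% and 0.978% of all genes. The invertebrate-type lysozyme gene ilys-3 measured 7.52, 7.75 and 7.65 in osm-7 and 9.85, 10.30 and 10.05 in osm-8 (difference 2.43, limma adjusted p = 8.77e-06). Its relative ilys-2 was lower in osm-8 (-1.96), and so was lys-7 (-2.39), with 11.60, 11.84 and 11.60 against 9.49, 9.03 and 9.35. Of the 13 saposin-like genes, whose products can form pores in membranes, 3 (23.1%) were called higher and 0 lower. They were spp-13 (3.26), spp-16 (2.04) and spp-31 (1.88), with spp-31 no longer called without osm-8 replicate 1 (1.58). None of 11 genes around the p38 kinase, which controls much of the pathogen response in worms, was called, and 0 passed the adjusted p. The kinase gene pmk-1 differed by -0.17 (95% interval -0.72 to 0.37).

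Lipid and sugar transport held a few very large rises. The gene far-3, which encodes a secreted protein binding fatty acids and retinol, measured 7.39, 7.73 and 7.81 in osm-7 and 12.20, 12.52 and 12.54 in osm-8. Its difference of 4.77 (standard error 0.172, limma adjusted p = 3.13e-12) stood against 1.98 for far-7, the other called member of 7. The sugar transporter gene swt-3 rose from 2.28, 3.16 and 2.42 in osm-7 to 8.11, 7.54 and 7.33 in osm-8, a difference of 5.04. The N2 mean was 6.05, so that the strains lay on opposite sides of it, osm-7 farther away than osm-8. The lysosomal lipase genes lipl-1 (3.45) and lipl-2 (2.03) were both called, of 4 tested. The lipid-binding protein gene lbp-7 was called at 1.64, but not without osm-8 replicate 2 (1.56) or osm-7 replicate 1 (1.40). Of the 7 fatty acid desaturase genes 0 were called. At the adjusted p alone 3 were higher, against 1123 of all 9000 genes, with fat-3 at 1.16.

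The largest fall of all genes was that of fmo-2, a flavin-containing monooxygenase gene induced in worms by hypoxia and fasting. The osm-7 arrays gave 7.76, 7.44 and 8.89, whereas the osm-8 arrays, at 2.13, 2.15 and 2.34, were at the background and at the N2 level of 2.13. The difference was -5.82 (standard error 0.323, limma adjusted p = 5.3e-10), and its size is uncertain because the osm-8 values were at the background. None of the other 4 fmo genes was called, and fmo-4 (1.51) and fmo-3 (1.25) were higher without reaching 3-fold. The glutathione S-transferase gene gst-4, a known target of the oxidative stress factor SKN-1, was the 1 called of 18 gst genes (5.56%, against 6.71% of all genes). It measured 10.61, 10.76 and 10.62 in osm-7 and 7.99, 8.16 and 8.16 in osm-8 (difference -2.56, adjusted p = 1.27e-06). The superoxide dismutase gene sod-3 was the 1 called of 13 genes of oxidative stress (7.69%), at -2.31. Its osm-7 arrays disagreed, with 4.69, 6.72 and 4.70, and its adjusted p in a fit to the 6 arrays alone was 0.0225. Of 28 cytochrome P450 genes, for enzymes that modify foreign compounds, 2 (7.14%) were called higher, against 5.73% of all genes. They were cyp-13A5 (2.71) and cyp-32A1 (1.76, falling to 1.55 without osm-7 replicate 2), and the list median was -0.18. Of 37 UDP-glucuronosyltransferase genes, for enzymes that also modify such compounds, 1 (2.7%) was called higher, ugt-6 (2.01).

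The transcripts of the mutated genes were low in both strains. The osm-8 transcript was near the background in both, with 2.39, 2.38 and 2.39 in osm-7 and 3.37, 2.55 and 2.32 in osm-8 (difference 0.36, limma adjusted p = 0.384). The osm-7 transcript measured 3.33, 2.92 and 3.32 in osm-7, next to an N2 mean of 3.19, and 4.72, 4.55 and 5.29 in osm-8. Its difference of 1.66 (adjusted p = 2.39e-05) fell to 1.44 without osm-8 replicate 3 and to 1.53 without osm-7 replicate 2, and 3-fold was then no longer reached. These levels give no check of the labels, since the alleles are not described as deletions in the sources used here. Of 9 genes for Notch ligands, receptors and partners, 1 was called higher and 1 lower (11.1% each, against 5.73% and 0.978% of all genes). The former was osm-7 and the latter the ligand gene dsl-2, from 3.89, 4.89 and 5.11 to a background of 2.40, 2.01 and 2.29 (-2.40). The relative osm-11 was lower by less than 3-fold (-0.62, adjusted p = 0.00574).

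The remaining falls came from genes of mixed or unassigned roles. In this group C27C7.1 and F44E7.4 had the smallest limma standard errors. For C27C7.1 the osm-7 arrays gave 10.52, 10.39 and 10.22 and the osm-8 arrays 6.59, 6.79 and 6.74 (difference -3.67, standard error 0.142, limma adjusted p = 7.41e-12). For F44E7.4 they gave 10.44, 10.46 and 10.38 against 6.78, 7.18 and 7.39 (-3.31). The chitinase gene cht-1 differed by -3.03, with 9.44, 10.05 and 10.58 in osm-7 and 6.98, 6.22 and 7.76 in osm-8. The Skp1-related genes skr-8 (-3.17, and -4.57 by another probe set) and skr-9 (-3.02), which encode ubiquitin ligase subunits, and the autophagy gene epg-2 (-3.08) were also among the 15 largest falls. Of 16 skr genes tested, 5 were called lower and 0 higher. This family was picked out after the calls were counted. The others were Y38E10A.14 (-3.69), vet-6 (-3.66), C14C6.5 (-3.66), Y105C5B.15 (-3.62), C35A5.3 (-3.55), C35E7.5 (-3.41) and mbug-1 (-3.22). Among the largest rises, E01G4.6 (6.78), H23N18.5 (6.57) and F41F3.3 (6.43) have no assigned function here, nor have C04F12.7 (6.20), ZK180.5 (6.03), R12E2.7 (5.93), nsph-3.2 (5.74) and srlf-34 (5.49). E01G4.6 gave 2.45, 2.43 and 2.34 in osm-7 and 9.33, 8.71 and 9.51 in osm-8.

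Several lists held no call or few. None of 72 ribosomal protein genes was called, and rpl-11.2 was the 1 that passed the adjusted p (1.04, limma adjusted p = 0.000335). None of 14 muscle, 12 epidermis and 8 neuron markers was called, with medians of 0.32, -0.05 and 0.38. Of 12 intestine markers 2 were called higher, ifo-1 (1.92) and ifb-2 (1.73), which act in the filament layer under the gut brush border. None of 8 GATA factor genes was called. For elt-3 the difference was 0.51 (95% interval -0.04 to 1.06) and for elt-2 0.24 (-0.24 to 0.72), with elt-2 near the intensity floor of 4 in both strains. None of 5 genes of tyrosine degradation was called. Of 17 heat shock genes 2 (11.8%, against 5.73% of all genes) were called higher, hsp-12.3 (2.05) and hsp-12.1 (1.92), and 0 lower. The largest difference of the list, that of hsp-16.2 (2.26, limma adjusted p = 0.105), was not called. Its osm-8 arrays disagreed, with 3.39, 6.40 and 6.66, as did those of hsp-16.41, with 2.85, 4.69 and 5.37.

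**Figure D4:**
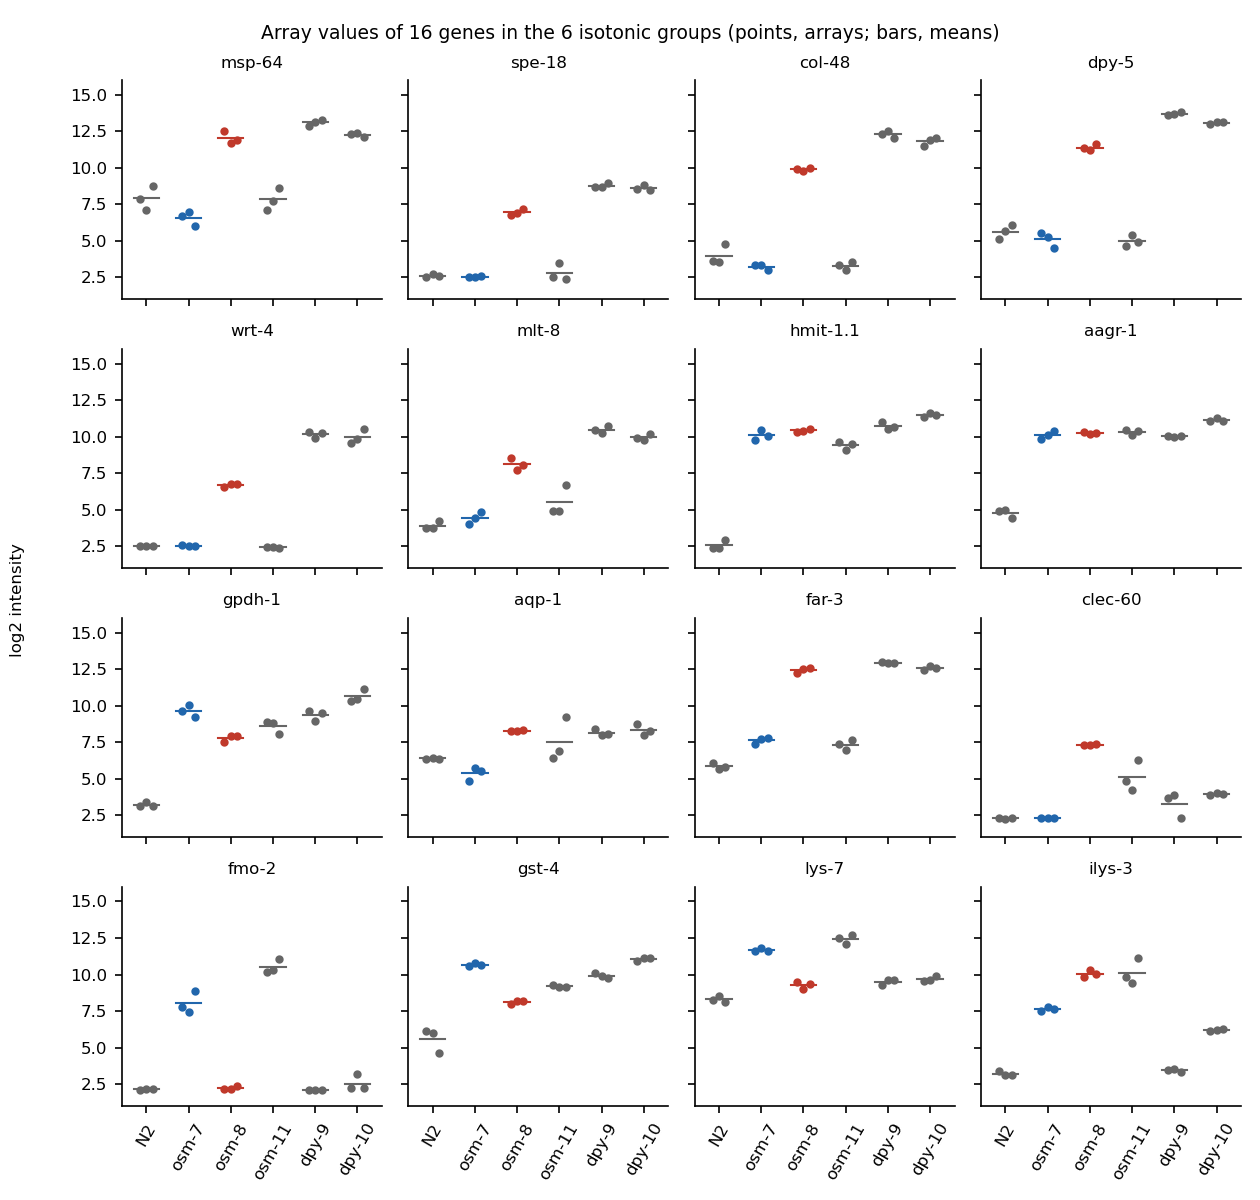
Log2 intensity (vertical axis) of 16 genes on each array of the 6 isotonic groups, with points for arrays and bars for the mean of 3, osm-7 in blue and osm-8 in red. The sperm, collagen and molting genes are high in osm-8, dpy-9 and dpy-10 and low in N2, osm-7 and osm-11, hmit-1.1 and aagr-1 are high in all 5 mutants, and fmo-2 is high in osm-7 and osm-11.

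The same probe sets were then read in arrays that the comparison had not used. The mean of dpy-9 and dpy-10, whose genes encode furrow collagens, was set against osm-11, whose gene encodes a relative of OSM-7. This contrast shares no array with the first and shares its estimate of the spread. It had 2229 calls (18.5% of the probe sets), 1596 higher (13.3%) and 633 lower (5.26%). Of the 661 probe sets higher in osm-8, 633 (95.8%) had the same sign and 563 (85.2%) were called higher in the dpy strains, while 6 were called lower. Of the 116 lower in osm-8, 98 (84.5%) had the same sign, 70 (60.3%) were called lower and 4 were called higher. Over all tested probe sets the signs matched for 84.2%, and for the 777 called they matched for 94.1%. Across the 777 the differences correlated with r = 0.818, and across all tested probe sets with r = 0.808, where probe sets are not independent replicates. Of the 661, 533 had a higher mean in both dpy strains than in osm-8 and 83 a lower mean in both. For col-48 the dpy-9 and dpy-10 means were 12.29 and 11.81, and for wrt-4 10.17 and 9.99, each above the osm-8 arrays. In osm-11, replicate 3 was above the other 2 arrays in the MSP and ssp sum (14.77 against 13.50 and 13.61). Without it, 738 of 781 called probe sets had the same sign, against 731 of 777 with it.

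Exceptions to this shared direction were few. Of the genes called, 35 had the other sign in dpy-9 and dpy-10 against osm-11. They include gpdh-1 (1.42), gst-4 (1.29), clec-60 (-1.50), hsp-12.3 (-0.96) and cyp-13A5 (-0.84), none of them called in that contrast. Among the 35, 7 genes, named after their values were seen, were called the opposite way. The lipase gene lipl-1 was higher in osm-8 than in osm-7 and reached a mean of 8.13 in osm-11, against 3.50 in dpy-9 and 3.87 in dpy-10. For ilys-3 the mean was 10.12 in osm-11, next to that of the osm-8 arrays, against 3.44 and 6.19 in the dpy strains. The other 2 of this direction were T16G1.4 and far-7. Lower in osm-8 than in osm-7 but higher in the dpy strains than in osm-11 were F01D5.5, C09B8.4 and nspe-7. The call of F01D5.5 was lost when either osm-8 replicate 2 (-1.58) or osm-7 replicate 2 (-1.12) was left out. It was also lost in a limma fit to the 6 arrays alone (adjusted p = 0.0257) and with arrays centred on their medians (-1.57). With 32 added to each intensity, F01D5.5 (-0.37), C09B8.4 (-0.60), nspe-7 (-1.36), T16G1.4 (1.00) and far-7 (1.52) were not called.

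**Figure D5:**
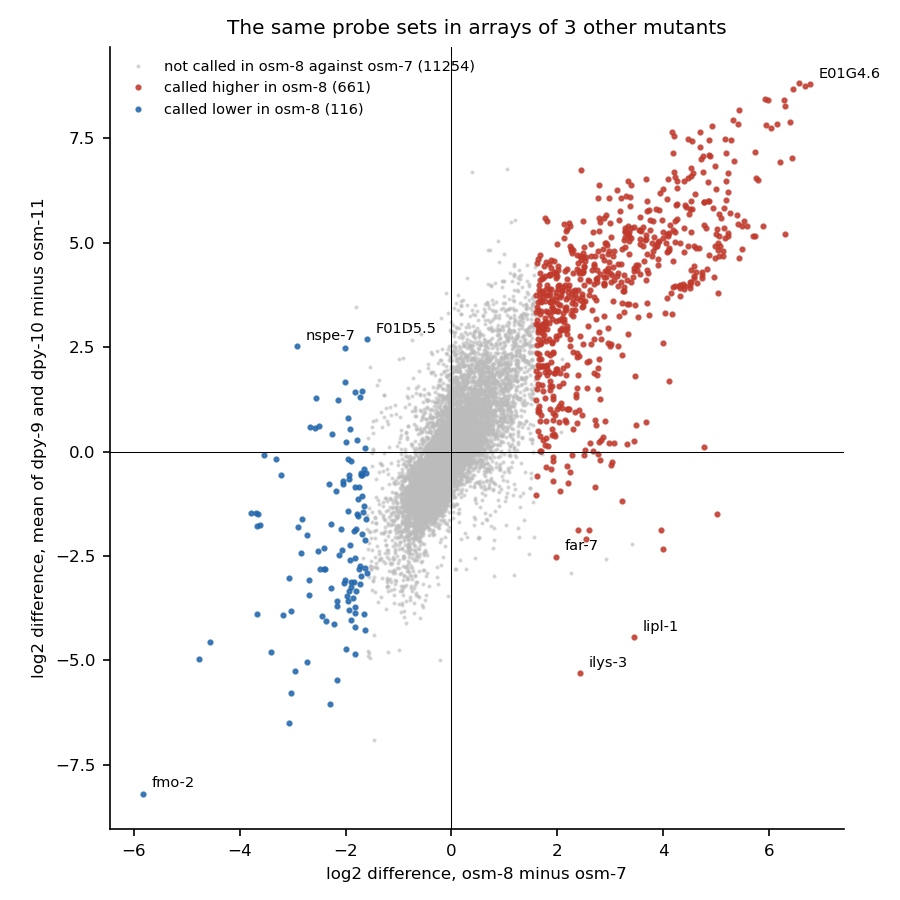
Log2 difference between the mean of dpy-9 and dpy-10 and osm-11 (vertical axis) against that between osm-8 and osm-7 (horizontal axis) for the 12031 tested probe sets, which come from separate arrays. Of the 661 probe sets called higher in osm-8 (red), 633 lie above 0, and of the 116 called lower (blue), 98 lie below 0, with lipl-1 and ilys-3 farthest on the other side.

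N2 arrays, which no contrast above used as a group, show which strain lay away from the wild type level on isotonic plates. Of the 661 probe sets higher in osm-8, 582 had an osm-7 mean within 3-fold of N2 and an osm-8 mean beyond it, and 10 the reverse. In 42 both strains were within 3-fold and in 27 neither was. Of the 116 lower in osm-8, 44 had osm-8 alone and 41 had osm-7 alone beyond 3-fold, 26 had neither and 5 had both. Thus fmo-2 and lys-7 were raised in osm-7 with osm-8 within 3-fold of N2, whereas C27C7.1, F44E7.4 and vet-6 were reduced in osm-8 with osm-7 near N2.

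A few genes set a strain apart from all 27 other arrays of the series, salt exposures included, by at least 3-fold from every other group mean. This screen was added after the values were seen. Above all others in osm-8 were clec-60, cnc-6, irg-5, an infection response gene, pgp-1, an ATP-driven drug exporter gene, asm-3, a sphingomyelinase gene, and F49C12.4, C50B6.7, F42A10.7 and C30F12.3, which makes 9. For irg-5 the osm-8 arrays gave 9.46, 9.93 and 9.66 and the osm-7 arrays 5.11, 4.96 and 4.68, and the highest mean of another group was 7.61. For pgp-1 they gave 6.09, 5.58 and 5.75 against 2.42, 2.37 and 2.19. Below all others in osm-8 were 4 genes, C27C7.1, C35A5.3, F44E7.4 and acdh-2, an acyl-CoA dehydrogenase gene with 5.36, 4.48 and 4.44 in osm-8 and 7.17, 7.29 and 7.31 in osm-7. In osm-7, 1 gene was above (Y38E10A.14) and 1 below all others. The latter was asp-12, an aspartyl protease gene, with 3.26, 4.93 and 3.25 in osm-7, 7.80, 8.28 and 7.70 in osm-8 and a mean of 8.11 in N2.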

How the data were processed

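The deposited values are intensities, deposited on a linear scale after the authors' normalization by GC-RMA (Partek software), with a value for each probe set on each array. Versions are not given in the sources used here. The deposited table was not on a log2 scale, and log2 was taken before any test. Probe sets were named through the platform annotation, with symbols updated from RefSeq. Of 22548, 20766 stood for 1 gene, 887 for several and 895 for none named, and 20701 of the first matched RefSeq. No present calls were used, so the filter of the study's methods was replaced by a log2 intensity of at least 4 on at least 3 arrays. The contrast was fitted with limma 3.58.1 in R 4.3.3 over the 18 isotonic arrays, with empirical Bayes and Benjamini-Hochberg adjustment over all 12031 probe sets tested. The study's thresholds were kept. The number of arrays limits the precision. Tables and figures were made with Python 3.11.15, pandas 2.3.3 and matplotlib 3.10.9, and the fit was tested on simulated data.

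Lists (36, with a gene read by its probe set of highest mean) are described by counts and medians. Named are the 15 largest called rises and falls without overlap, the 4 largest differences of each list and genes the paper names, pseudogenes aside. Others are said to be added. The comparison, lists and genes were chosen with earlier results of these data known. Same-numbered osm-7 and osm-8 arrays deviated together, with correlations of 0.40, 0.31 and 0.12, so the numbers were also fitted as a block. Other alternatives changed the filter, the samples, the variance prior, the scaling, the probe sets or the threshold, or left out an array.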

Additional observations from a re-analysis of the deposited data

How the results depend on the processing

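Under no alternative did a probe set called in the main comparison change sign, but most alternatives could not have changed one. Other filters, thresholds and variance priors leave the difference itself as it is. Since the arrays of the strains did not overlap in any of the 777, leaving out an array or adding an intensity also keeps the sign. The number called was 777 (661 higher, 116 lower, 731 with the same sign in dpy-9 and dpy-10 against osm-11). With 32 added to each intensity it was 357 (306, 51 and 344), since this shrinks differences that start near the background. When _x_at and _s_at probe sets were dropped it was 398 (340, 58 and 368), from 6926 tested. At an adjusted p of 0.05 and 2-fold it was 1501 (1178, 323 and 1399), and at 0.01 with no fold limit 2098 (1399, 699 and 1965). Leaving out each array of osm-8 or osm-7 in turn gave between 764 and 792 calls, 638 to 681 higher, 102 to 146 lower and 713 to 741 with the same sign. Leaving out each osm-11 array, an alternative chosen after seeing the data, gave 722 to 738 with the same sign. The other filters, fits and scalings gave between 605 and 789 calls, of which 80.9% (quantile normalization) to 86.6% were higher, against 85.1%. With the replicate block there were 774 calls (658 higher, 116 lower, 728 with the same sign), 773 of them shared with the main comparison, and the block changed no call of a gene named here.

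Of 106 called genes followed, 33 lost their call under at least 1 alternative and none changed sign. Most of these losses came with the added intensity, which lowered the called Hedgehog-related genes from 15 to 7 and the lectins called higher from 10 to 3. It also took the calls of nas-7, nlp-30, spp-13, spp-31, lipl-2, lbp-7, hsp-12.1, hsp-12.3, cyp-13A5 and cyp-32A1. Those of ugt-6, sod-3, dsl-2, osm-7, asm-3, pgp-1, C30F12.3 and F49C12.4 were lost with it as well. Quantile normalization took dpy-3 (1.52), osm-7 (1.47) and nas-7 below 3-fold. The gene gpdh-1 kept its call throughout, and tre-5 (-0.42), aqp-4 (1.29), dpy-8 (1.52) and dpy-3 (0.69) did not with the added intensity. Precision near the background is limited by signal. The 370 probe sets with an osm-7 mean under 4 therefore have differences of uncertain size. The 2 probe sets of col-109 differed in size. The one with the higher mean gave 2.01 and was used.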

Other observations

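By nuclear chromosome, the share of tested genes called higher in osm-8 ran from 2.92% (44 of 1507) on chromosome III to 8.33% (129 of 1548) on chromosome IV, with 0 of 8 mitochondrial genes, against 5.73% of all 9000 genes. It was 4.6% on I, 7.09% on II, 5.37% on V and 6.39% on X. By gene name, 6 of 9 dbd genes and 5 of 6 msrp genes were called higher and 0 lower, with medians of 3.68 and 2.61. These classes were picked out after the calls were counted.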
